A study of Mus musculus with 6 samples.

Results

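Transcripts of the cytosolic ribosomal proteins were examined in the left ventricle of mice without Akt2. Members were chosen by symbol: Rpl or Rps followed by a digit, a or p, on a probe set that names 1 gene, leaving out the kinases whose symbols start with Rps6k and pseudogene symbols with a -ps suffix. Each gene was read from its brightest probe set, that with the highest mean log2 signal over all 6 arrays. This gave 50 genes, out of 18193 genes that have a probe set of their own. Of these, 48 passed the filter on low signals and were tested among 11075 genes. The other members, Rps16 and Rpl39l, had mean signals of 2.8 and 109.6 in the knockout and 4.7 and 62.7 in the wild type, and were not tested. Of the tested genes, 20 encode proteins of the small subunit, 20 proteins of the large subunit and 2 (Rplp0 and Rplp2) proteins of its P stalk. Another 4 are paralogs (Rpl3l, Rpl22l1, Rps27l and Rps4l). The last 2 match the symbol rule but are not structural parts of the ribosome: Rpl7l1, a factor of large subunit assembly, and Rps19bp1, which binds the small subunit protein Rps19.

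The study compared 3 samples from akt2-/- mice, which carry a targeted disruption of the gene, with 3 from wild type mice. All were left ventricles of C57BL/6 males aged 12 to 16 weeks, and the akt2-/- line had been backcrossed more than 7 times. The disruption is not described as limited to a cell type or driven by a Cre, so an effect within the myocyte and one from elsewhere cannot be told apart. Nothing states that each sample of a group came from its own animal. The p-values therefore cover the spread among these 6 samples, which may be technical, and so few arrays limit the precision.

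Ribosomal proteins bind ribosomal RNA to form the small subunit, which reads the message, and the large subunit, which joins the amino acids. Akt kinases act on mTORC1, which through S6 kinase and Larp1 governs ribosome assembly and the translation of messages that begin with a pyrimidine tract at the 5′ end. Nearly all messages of ribosomal proteins begin this way. The arrays measured the amount of RNA and not its translation.

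The annotated starts show such a run in some of the genes. Given here are the start sites of the 8 genes with the lowest unadjusted p for genotype, from 20 bases before to 30 bases after the annotated start, 5′ to 3′ on the gene's strand, from RefSeq on GRCm38.p6. Capitals mark the longest run of C and T in the window.
Rps25, chr9:44407694-44407743, plus strand: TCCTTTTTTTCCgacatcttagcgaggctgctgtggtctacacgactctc
Rpl3l, chr17:24727806-24727855, plus strand, the first of 2 listed starts: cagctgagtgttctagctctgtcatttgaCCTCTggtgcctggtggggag
Rps18, chr17:33955636-33955685, minus strand: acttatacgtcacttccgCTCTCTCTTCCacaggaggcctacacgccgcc
Rps6, chr4:86857338-86857387, minus strand: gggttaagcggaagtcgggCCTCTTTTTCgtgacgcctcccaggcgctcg
Rps3, chr7:99483680-99483729, minus strand: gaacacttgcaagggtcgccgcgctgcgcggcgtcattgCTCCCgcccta
Rps27, chr3:90213619-90213668, minus strand: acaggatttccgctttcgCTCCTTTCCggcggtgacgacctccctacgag
Rpl35, chr2:39005102-39005151, minus strand: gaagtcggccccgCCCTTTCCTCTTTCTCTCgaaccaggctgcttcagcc
Rpsa, chr9:120127746-120127795, plus strand: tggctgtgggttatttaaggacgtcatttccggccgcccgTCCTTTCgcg

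In Rps18, Rps6, Rps27 and Rpl35 the run spans the annotated start. In Rps25 it ends before the start, and in Rpsa it lies downstream of it. In Rps3 and Rpl3l the longest run was 5 bases, against 18 in Rpl35. Over the 44 members with a promoter sequence, 30 (68.2%) had a run of at least 7 in this window at one of their listed starts, as did 31.9% of all 27025 genes with a sequence. The letters CCGGAAG, bound by ETS factors, were found on either strand in the 300 bases around the start, from 250 before to 50 after it, in 21 members (47.7%) and in 9.93% of all genes. GGGCGG, the Sp1 box, was found in 59.1% against 38.2%, AAGATGGC, the YY1 element, in 9.09% against 3.19%, and TATAAA in 13.6% against 15.7%. A window may hold several of these. Rpl3l held none of these 4 letter strings at either of its starts.

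The arrays themselves fell into 2 sets, which the labels do not name. In the replicate 1 arrays of the knockout and the wild type the 18S ribosomal RNA controls had median signals of 57275 and 82330, against 152.7 to 446.7 in replicates 2 and 3. The poly-A spike-in controls, added to RNA before labelling, had 54.2 and 57 against 456.9 to 825.8. Akt2 had signals of 477.8, 394.5 and 255.4 in knockout replicates 1 to 3, against 2362.6, 2561.3 and 2505.4 in wild type replicates 1 to 3, a log2 difference of -2.69 (SE 0.24, limma adjusted p = 0.0638), so the arrays followed their labels. All 12 heart muscle markers checked, such as Myh6 and Tnnt2, had mean signals over 10000.

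No ribosomal protein gene changed with genotype past the threshold, and most were slightly lower in the knockout. Limma called 0 of the 48 members at an adjusted p under 0.05, and 0 of all 11075 genes (0%). Unadjusted p was under 0.05 for 0 members, where it was for 240 genes (2.17%) overall. The adjusted p of every member rounded to 1. In the knockout 40 of the 48 were lower and 8 higher, where 5174 of all 11075 genes (46.7%) were lower. The median log2 difference, knockout minus wild type, was -0.07 over the members and 0.01 over all genes. Single members ranged from -0.49 for Rpl27a to 0.36 for Rps27. Less RNA per cell and fewer cells of a type cannot be told apart in tissue RNA.

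**Figure D1:**
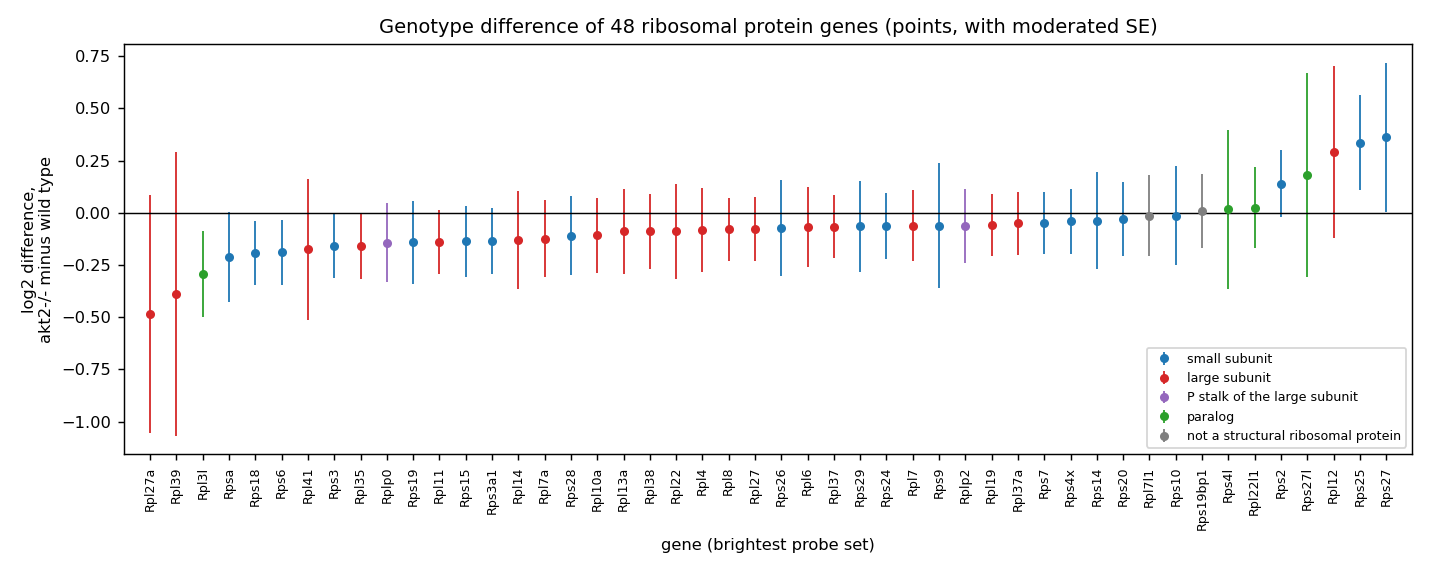
Log2 difference between akt2-/- and wild type left ventricles for the 48 tested genes (points, n = 3 arrays each, bars: moderated SE), ordered by size and coloured by role. Most points lie a little below 0, 40 of 48, and the bars of most of them cross 0.

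By role, 17 of 20 small subunit genes and 19 of 20 large subunit genes were lower, with medians of -0.06 and -0.09. Both stalk genes were lower, at -0.14 for Rplp0 and -0.06 for Rplp2. Of the 4 paralogs 1 was lower, Rpl3l. The paralog Rps4l gave 0.02 (SE 0.38). The 2 genes that are not structural lay close to 0, at -0.01 for Rpl7l1 and 0.01 for Rps19bp1.

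The genes not described one by one kept to a narrow range, in part by selection. Members with the lowest p or the largest differences had been taken out for naming. So had the 4 subunit genes that were higher, Rps27, Rps25, Rpl12 and Rps2. The 14 of the large subunit (Rpl4, Rpl6, Rpl7, Rpl7a, Rpl8, Rpl10a, Rpl13a, Rpl14, Rpl19, Rpl27, Rpl37, Rpl37a, Rpl38 and Rpl41) were all lower, between -0.17 for Rpl41 and -0.05 for Rpl37a. The 11 of the small subunit (Rps3a1, Rps4x, Rps7, Rps14, Rps15, Rps19, Rps20, Rps24, Rps26, Rps28 and Rps29) were also all lower, between -0.14 for Rps19, mutated in Diamond-Blackfan anaemia in humans, and -0.03 for Rps20. None of these differences passed the limma test. Rpl14 was read from a dim probe set, with mean signals of 150.9 in the knockout and 162.6 in the wild type.

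In 3 members every knockout array was below every wild type array, and in 0 members above. Over all genes these shares were 3.56% and 3.9%. Rps18, a protein of the small subunit head, had signals of 23811, 21693 and 23173 in knockout replicates 1 to 3, against 27635, 24273 and 26642 in the wild type. The highest knockout array was thus just under the lowest wild type array. Its log2 difference was -0.19 (SE 0.152). The replicate 1 pair alone gave -0.21, and the other pairs, of replicates 2 and 3, gave -0.18. Its other probe sets above the filter gave -0.18 and -0.13, and in both the groups overlapped. They gave -0.44 and -0.36 for the replicate 1 pair, but -0.06 and -0.01 for the others.

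Rps6, the substrate from which S6 kinase takes its name, had 702.7, 781.9 and 821 in the knockout, against 882.3, 827.3 and 926.9 in the wild type. The groups did not overlap, but knockout replicate 3 and wild type replicate 2 almost met. Its log2 difference was -0.19 (SE 0.155). Other probe sets for Rps6 also name a pseudogene: 8 of them passed the filter and 7 were lower in the knockout. The one with mean signals of 37860 in the knockout and 41630 in the wild type gave -0.13, and its groups overlapped. It gave -0.36 for the replicate 1 pair but -0.01 for the others, where the member's own probe set gave -0.32 and -0.125.

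Rpl35, which lies near the exit of the large subunit, had 15855, 18801 and 18848 in the knockout, against 19038, 19584 and 20983 in the wild type. The 3 knockout arrays were the lowest, with the replicate 1 array well below the others. The log2 difference was -0.16 (SE 0.159), with -0.26 for the replicate 1 pair and -0.11 for the others. Its 4 other probe sets above the filter gave -0.20, -0.20, -0.24 and -0.25, and the groups overlapped in all but the last. They gave -0.41, -0.42, -0.65 and -0.36 for the replicate 1 pair, but -0.09, -0.09, -0.03 and -0.19 for the others.

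**Figure D2:**
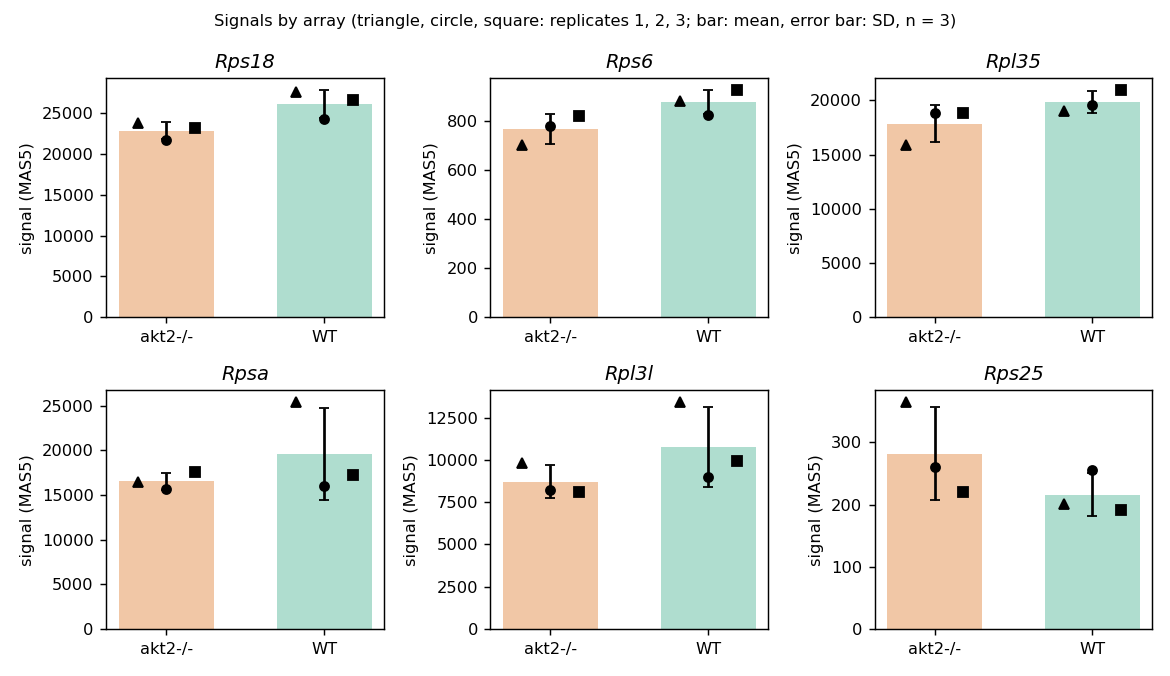
Signals of 6 named genes in each array (triangles, circles and squares: replicates 1, 2 and 3), with the mean (bar) and SD (error bar, n = 3) of akt2-/- on the left and wild type on the right of each panel. In Rps18, Rps6 and Rpl35 the groups did not overlap, while in Rpsa the wild type replicate 1 array at 25452 stands above the other 5.

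Rpl3l, the muscle form of the large subunit protein Rpl3, had the lowest unadjusted p among the lower genes. Its signals were 9828, 8217 and 8085 in the knockout, against 13451, 8983 and 9928 in the wild type. Every knockout array was below the wild type array of the same number, but knockout replicate 1 was above wild type replicate 2. The log2 difference was -0.29 (SE 0.207), made up of -0.45 for the replicate 1 pair and -0.21 for the others. Without wild type replicate 1 it was -0.12. When the difference between the replicate 1 arrays and the others was modelled as a block, Rpl3l was the 1 member with an unadjusted p under 0.05, where 8.32% of all genes had one. Its limma adjusted p was 0.586 in that fit. With the replicate number as the block, 0 members and 5.99% of all genes had an unadjusted p under 0.05, and the limma adjusted p of Rpl3l was 0.767.

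Rpl3 itself has no probe set of its own. Its brightest shared probe set had 13332, 12288 and 12063 in the knockout, against 13483, 11408 and 11276 in the wild type, which differ by 0.06 on the log2 scale. In replicates 2 and 3 the knockout arrays were above the wild type arrays for Rpl3 and below them for Rpl3l. This contrast was not tested.

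Rpl22, an RNA-binding large subunit protein, and its paralog Rpl22l1, which Rpl22 represses in mice, stood at -0.09 (SE 0.227) and 0.02 (SE 0.194). Rpl22 had 21950, 31922 and 32334 in the knockout, against 24686, 33369 and 33001 in the wild type. Rpl22l1 had 5604, 6349 and 6071 in the knockout, against 4703, 6520 and 6707 in the wild type. The groups overlapped in both genes. The other 2 probe sets of Rpl22 gave 0.05 and 0.18, against the sign of its brightest.

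Rps27 and its paralog Rps27l, a target of p53, were both higher in the knockout by their brightest probe sets, at 0.36 (SE 0.357) and 0.18 (SE 0.489). Rps27l had 6450, 10721 and 10863 in the knockout, against 3673, 11660 and 12008 in the wild type. Only the replicate 1 pair was higher in the knockout, by 0.81 on the log2 scale, and replicates 2 and 3 gave -0.13. Its other probe sets gave -0.07 and -0.01, against the sign of the brightest.

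Several of the higher members were read by dim probe sets whose brighter, shared probe sets went the other way. Rps27 had 235.2, 113.2 and 268.8 in the knockout, against 214.3, 107.6 and 133.6 in the wild type. The probe set that it shares with Rps27rt had mean signals of 28800 in the knockout and 34400 in the wild type, and its log2 difference was -0.22.

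Rps25, a small subunit protein used by some viral and cellular messages to start translation, had the lowest unadjusted p of all members. It had 365.2, 260.5 and 219.5 in the knockout, against 201.6, 255 and 190.6 in the wild type. Knockout replicate 1 stood highest and the groups overlapped, at a log2 difference of 0.34 (SE 0.227). Its shared probe set, with mean signals of 20400 in the knockout and 22740 in the wild type, gave -0.17.

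Rps2 gave 0.14 (SE 0.16), from 39694, 38964 and 41732 in the knockout, against 33138, 35609 and 40906 in the wild type. Its 2 shared probe sets gave -0.16 and -0.22. Rpl12, at the base of the stalk, gave 0.29 (SE 0.413), from 164.9, 189.8 and 196.2 in the knockout, against 61.6, 215.8 and 215.2 in the wild type. Wild type replicate 1 stood far below the other arrays, and 1 of its shared probe sets gave -0.18 and the other 0.01. In all 4 genes the value of the member and that of at least 1 shared probe set thus differed in sign.

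Probe sets outside the membership rule covered further ribosomal protein genes. Another 31 symbols, Rpl3 and the stalk gene Rplp1 among them, were named only beside other genes, so their signals cannot be assigned to 1 gene. Rplp1 gave -0.14, and Rps27a had no probe set in either class. Their brightest shared probe sets were 29 in number, and 27 were lower in the knockout, with a median of -0.11 and a range from -0.22 to 0.06. Of the 42 further probe sets above the filter that name a member alone, 33 were lower, and 31 had the sign of the member's brightest probe set. Most probe sets above the filter that did not define the members were thus lower too, on the same arrays. Of the 50 members' probe sets, 13 carry the suffix x and 2 the suffix s, which Affymetrix gives to probes that can match other transcripts.

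The difference between genotypes was mostly that of the replicate 1 pair. In that pair 38 of 48 members lay below 0, at a median of -0.23, where 48.7% of all genes were lower and their median was 0.01. In replicates 2 and 3, 30 of 48 were lower, with a median of -0.02, where 49.3% of all genes were lower and their median was 0.003. For the replicate 1 pair the medians were -0.25 over the small subunit genes and -0.22 over the large subunit genes. For the other pairs they were -0.003 and -0.03. The 29 shared probe sets behaved likewise: the replicate 1 pair had 27 lower, and the other pairs 15.

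**Figure D3:**
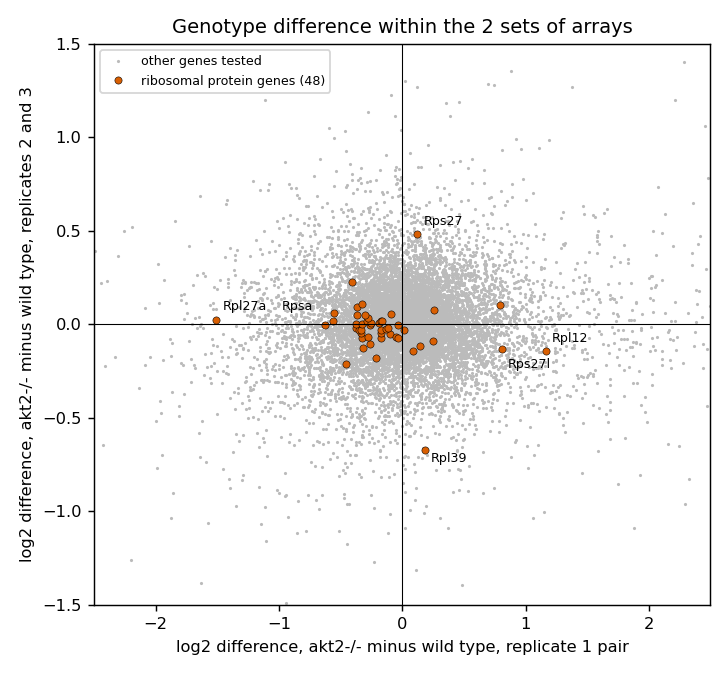
Log2 difference between akt2-/- and wild type in the replicate 1 pair (x axis, 1 array a genotype) against that in replicates 2 and 3 (y axis, 2 arrays a genotype), for the 48 ribosomal protein genes (large points) and the other tested genes (small points; 48 genes lie beyond the axes, 0 of them members). The large points lie mainly left of the vertical line and close to the horizontal one.

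Members read from bright and from dimmer probe sets differed in this pattern. Among the 34 members with a mean signal over 10000, 33 were lower in the knockout, with a median of -0.08. Among the 14 others 7 were lower, with a median of -0.002. These 14 include the 4 paralogs and the 2 genes that are not structural. Some of the rest, such as Rps27, Rps25 and Rpl39, have shared probe sets with mean signals over 10000. The split is thus one of probe sets and not of genes. Of the 392 other genes with signals over 10000, 200 (51%) were lower over all arrays, with a median of -0.002. They were lower in 74% of cases in the replicate 1 pair (median -0.16) and in 24.2% in the other pairs (median 0.08). The 34 bright members had medians of -0.26 and -0.003, with 32 and 21 lower. This bound on the signal was chosen after the values were seen, and the part of signal strength in the result was not tested. With the arrays quantile normalised, 39 of 48 members were lower and the median was -0.06.

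The size of the replicate 1 difference varied among members. Rpsa, a small subunit protein also known as the laminin receptor, had 16487, 15641 and 17537 in the knockout, against 25452, 15986 and 17261 in the wild type. A single array, wild type replicate 1, stood apart. The log2 difference was -0.21 (SE 0.216) over all arrays and -0.006 without wild type replicate 1.

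Rplp0, the core of the stalk that recruits elongation factors, had 32305, 35109 and 38877 in the knockout, against 47412, 33610 and 37246 in the wild type. Its difference was -0.55 for the replicate 1 pair but 0.06 for the others, and -0.14 (SE 0.191) over all arrays. Rplp2, which binds Rplp0 as part of a dimer, had 35591, 36269 and 39455 in the knockout, against 46020, 33962 and 37006 in the wild type. It gave -0.37 and 0.09. In both stalk genes wild type replicate 1 was the highest of the 6 arrays.

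Rpl27a had 1216, 726.1 and 950.1 in the knockout, against 3495, 774.1 and 859.7 in the wild type. Its pooled difference of -0.49 (SE 0.569) came from wild type replicate 1: without that array it was 0.21. A probe set shared with other genes, with mean signals of 24070 in the knockout and 24730 in the wild type, gave -0.03.

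Rps3 at -0.16 (SE 0.152) and Rpl11, which binds the p53 regulator Mdm2, at -0.14 (SE 0.154) gave -0.33 and -0.28 for the replicate 1 pair, but -0.08 and -0.07 for the others. Rps3 had 16019, 17068 and 17931 in the knockout, against 20124, 17753 and 19136 in the wild type. Rpl11 had 12262, 13733 and 14198 in the knockout, against 14882, 13982 and 15363 in the wild type. In both genes the groups overlapped because knockout replicate 3 was above wild type replicate 2.

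The interaction, the genotype difference in the replicate 1 pair minus that in replicates 2 and 3, was called by limma in 0 of 48 members and in 63 of 11075 genes (0.569%). Unadjusted p was under 0.05 in 6 of 48 members, a smaller share than the 20.5% of all genes. The members nearest to the threshold were Rpl12 (1.31, SE 0.178, adjusted p = 0.0662), Rpl27a (-1.53, SE 0.285, adjusted p = 0.0947) and Rps27l (0.94, SE 0.178, adjusted p = 0.0963). Rpsa had -0.62 (SE 0.207, adjusted p = 0.197). With 4 coefficients fitted to 6 arrays, a single array stands for each genotype in that pair, and the call turned on the settings. With quantile normalisation Rpl12 (adjusted p = 0.0294) and Rpl27a (adjusted p = 0.0474) passed in limma, and with a trended, robust variance Rpl27a (adjusted p = 0.0111) and Rps27l (adjusted p = 0.00935).

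**Figure D4:**
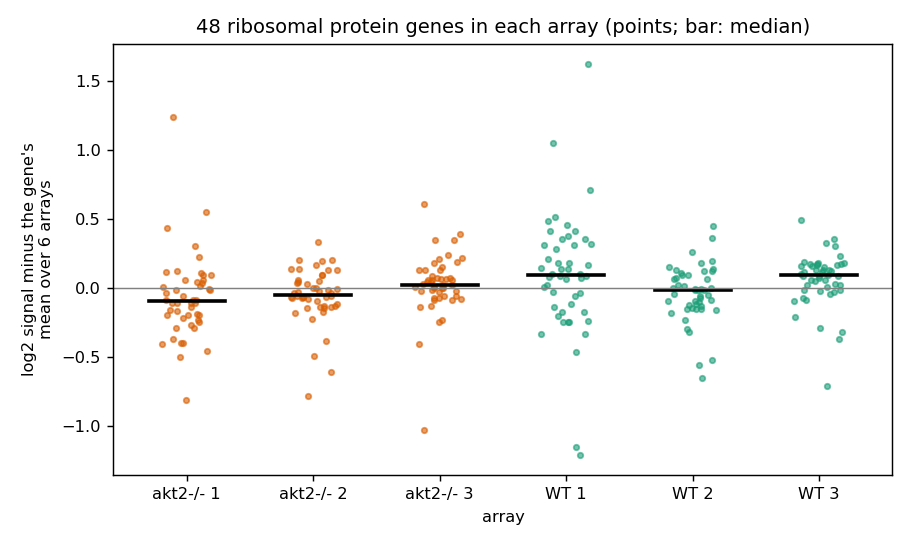
Log2 signal of each of the 48 genes in each array, minus the gene's mean over the 6 arrays (points), with the median over genes (bar), for akt2-/- on the left and wild type on the right. The highest points of wild type replicate 1 are Rpl27a and Rpl39, and its lowest are Rps27l and Rpl12.

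The spread within a genotype was narrow apart from replicate 1. The median SD of log2 signals within a genotype was 0.201 over the members and 0.297 over all genes. Within replicates 2 and 3 alone it was 0.0725 and 0.125. Other genes with mean signals over 10000 were also less spread, at 0.227 over all replicates and 0.09 in replicates 2 and 3. Members with such signals had 0.172 and 0.0704. Knockout replicate 1 was the lowest knockout array in 26 of 48 members and the highest in 17, and wild type replicate 1 was the lowest in 17 and the highest in 25. Across the 6 arrays, the 1128 pairs of members had a median Pearson correlation of 0.24, and 59.8% of pairs were positive. These pairs share the same arrays and their scaling. Rps3a1 and Rpl8 had the highest median correlation with the other members, 0.56 and 0.55, and Rps25 the lowest, -0.48.

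Between the replicate 1 arrays and the other 4, with genotype in the model, limma called 9 members at an adjusted p under 0.05, 7 lower and 2 higher in the replicate 1 arrays. Over all genes 15.1% were called lower and 18.9% higher. The median difference was 0.009 over the members and 0.06 over all genes. Its sign depended on the scaling: with arrays centred on their medians it was -0.10 over the members and -0.05 over all genes, and with quantile normalisation -0.12 and -0.04. Of the calls over all genes 44.4% were lower as deposited, 60.8% after centring and 54.7% after quantile normalisation. Centring called 13 members lower and 2 higher, and quantile normalisation 10 lower and 3 higher. Rps9, a small subunit protein that binds ribosomal RNA early in assembly, had 11872 in knockout replicate 1 and 12147 in wild type replicate 1, against 19326 and 19422 in the other knockout arrays and 20105 and 20726 in the other wild type arrays. All 4 other arrays were well above the replicate 1 arrays, a log2 difference of -0.73 (SE 0.103, adjusted p = 0.00929). The other probe sets of Rps9 above the filter had the opposite sign, at 0.24 and 0.13.

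Rps27l was lower in the replicate 1 arrays by -1.21 (SE 0.22, adjusted p = 0.0144) in that limma fit. Rps10, another small subunit protein, had -0.53 (SE 0.105, adjusted p = 0.0178), with 30335 and 31136 in the replicate 1 arrays, against 42728 to 45941 in the others. The other lower genes were Rpl41 (-0.79), Rpl22 (-0.49), Rps26 (-0.47) and Rpl7l1 (-0.36). Rpl39, whose protein lines the exit tunnel, was higher at 1.71 (SE 0.301, adjusted p = 0.0133), as was Rpl27a at 1.30 (SE 0.348, adjusted p = 0.0358). Rpl41, Rps26 and Rpl7l1 were picked out after their values were seen.

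Rpl39 had 821.1 and 720.7 in the replicate 1 arrays of the knockout and the wild type, against 186.1, 153.6, 206.1 and 385.4 in the other arrays. Its shared probe set, with mean signals of 51810 in the knockout and 51220 in the wild type, differed by 0.06 between these sets of arrays. For Rps10 the 4 other probe sets above the filter gave -1.23, -0.04, 0.01 and 0.31. The other probe sets of Rpl41 above the filter gave 0.38 and 0.63, opposite in sign to its brightest. Those of Rps27l (-0.52 and -1.19) and Rpl22 (-0.62 and -0.91) had the same sign as theirs. The other probe sets of Rpl7l1 gave -0.18 and 0.64, against -0.36 for its brightest. Probe sets of 1 gene thus differed in size and, for Rps9, Rpl41, Rps10 and Rpl7l1, in direction.

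**Figure D5:**
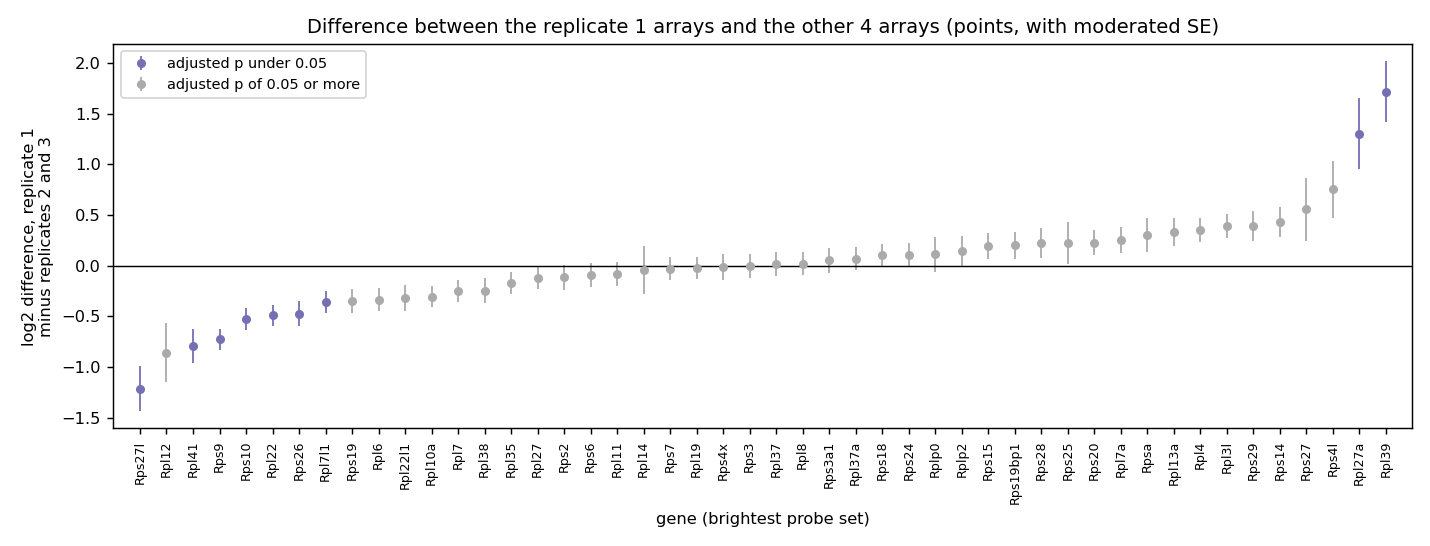
Log2 difference between the replicate 1 arrays and the other 4 arrays, genotype in the model, for the 48 genes (points, bars: moderated SE), ordered by size. The 9 genes past the threshold are coloured, 7 below 0 at the left and 2 above 0 at the right.

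Other genes of protein synthesis did not pass the limma test for genotype either. These lists were chosen from known roles, with earlier results of the data known. Fau, which encodes a small subunit protein fused to a ubiquitin-like one, had 15631, 15285 and 17188 in the knockout, against 21308, 16918 and 17163 in the wild type, or -0.20 (SE 0.169) on the log2 scale. Its groups overlapped through knockout replicate 3. Of 14 tested messages of elongation factors and others that begin with a pyrimidine tract, 9 were lower and 5 higher, with a median of -0.05. Btf3, a part of the nascent chain complex, had 7664 ± 512 in the knockout and 8426 ± 155 in the wild type (SD, n = 3 each), -0.14 (SE 0.149), and the mean over all its probe sets was 0.04. Its groups did not overlap. Eif3h and Eif3f, of the same list, gave -0.09 and -0.07.

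Of 24 translation initiation factors 11 were lower and 13 higher, with a median of 0.01, and those with the lowest p, Eif4a2, Eif2b5 and Eif4h, gave 0.17, 0.10 and 0.10. Of 38 genes of RNA polymerase I and nucleolar ribosome assembly 22 were lower and 16 higher, with a median of -0.03. Ubtf, which opens the ribosomal RNA genes for transcription, had 790.7, 1006.6 and 895.4 in the knockout, against 1348.2, 1076 and 1073 in the wild type. The groups did not overlap, at a log2 difference of -0.37 (SE 0.181). Nop58, a core protein of the particles that methylate ribosomal RNA, had 163.9, 479.4 and 315.7 in the knockout, against 384.3, 626.1 and 584.4 in the wild type, -0.78 (SE 0.384). Its partner Nop56 went the other way, at 0.36 (SE 0.193).

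Of 16 genes of mTORC1, S6 kinase and 4E-BP signalling 8 were lower and 8 higher, with a median of 0.01. Max, the partner of Myc at its target genes, was the 1 gene of these lists with an unadjusted p under 0.05 in this fit. It had 466.1, 506 and 459.3 in the knockout, against 654.7, 711.7 and 790.5 in the wild type, with no overlap, and gave -0.57 (SE 0.157, limma adjusted p = 1). Eif4ebp1, the translation repressor that mTORC1 switches off, had 4320 ± 272 in the knockout and 4971 ± 309 in the wild type (SD, n = 3 each), -0.20 (SE 0.153). Rps6kb2, an S6 kinase, gave -0.22 (SE 0.179) over all arrays, with -0.59 for the replicate 1 pair but -0.03 for the others.

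No marker of a cell type passed the limma test for genotype, and 0 of them had an unadjusted p under 0.05. All 10 endothelial markers were tested and 9 were lower in the knockout, with a median of -0.16 and summed signals of 25024 to 26949 in the knockout against 28518 to 29753 in the wild type. The brightest, Aqp1, weighs most in these sums, so they do not show a change of the whole list. It had 9526.5 to 10847.6 in the knockout against 11464.6 to 14195.9 in the wild type. In 4 of the 10 markers, Aqp1, Vwf, Tek and Pecam1, every knockout array was below every wild type array, as in 3.56% of all genes. The median of the list was -0.18 for the replicate 1 pair and -0.17 for the others, with 9 and 8 of 10 lower. Of 11 macrophage markers 10 were tested and all 10 were lower, with a median of -0.18 and overlapping sums of 15457 to 31020 against 20491 to 32063. Heart muscle markers were lower in 11 of 12, with medians of -0.68 for the replicate 1 pair but 0.17 for the others, and sums of 654564 to 1054043 against 541122 to 1750086. Fibroblast markers had sums of 65208 to 98970 against 69879 to 92743, with 4 of 9 lower. Smooth muscle and pericyte markers had 34783 to 38018 against 32081 to 40431, with 2 of 6 lower, and blood cell markers 3771 to 4054 against 3140 to 5205, with 2 of 3 lower. Of 8 lymphocyte markers 1 passed the filter. The part of these cells in the ribosomal protein result was not tested.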

How the data were processed

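The deposited table gives 1 linear intensity for each of 45101 probe sets on each of 6 arrays, computed with MAS5 per the submitters' processing notes; the sources used here give neither its version nor its settings. The trimmed mean was 500 on every array, and this scaling was kept. Tests left out the 64 control probe sets. Values were put on the scale log2(signal + 21.7), the 20th percentile of all values, on which fold changes of dim genes are understated. Probe sets whose mean was under the median of 6.868 were left out. For 11075 genes the brightest probe set was then tested in R 4.3.3 by limma 3.58.1, using lmFit and eBayes without covariates, with Benjamini-Hochberg adjustment over all genes and a threshold of 0.05. The test was checked on simulated data, which does not show that it can find real differences in these arrays. Their median SD of log2 signals within a genotype was 0.297 over all genes. Even the disrupted gene itself, at a log2 difference of -2.69, missed the threshold (limma adjusted p = 0.0638).

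Further limma fits estimated the difference between the replicate 1 arrays and the others, with genotype in the model, and the interaction of this difference with genotype. After subtracting genotype means, knockout and wild type arrays of the same number correlated at 0.608, 0.476 and 0.382 over the tested genes. Arrays 2 and 3 of unlike number correlated at 0.412 and 0.362, so over these genes the numbers set apart replicate 1 but hardly replicates 2 and 3. Over the members, arrays of the same number correlated at 0.69, 0.748 and 0.424, and arrays 2 and 3 of unlike number at 0.438 and 0.408. A fit with the replicate number as a block was made as an alternative. Other alternatives were pseudocounts, filters, scalings, variance estimates, averaging a gene's probe sets, a block for the replicate 1 arrays, replicates 2 and 3 alone, and leaving out each array.

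All 50 members were found in the RefSeq gene table of GRCm38.p6 and 44 in its promoter sequences. The members and lists were chosen with earlier results of these data known. Genes named were Akt2, the pairs of paralogs, Rps6, Rpsa and the stalk genes, the members with the lowest p or largest difference in each fit, and up to 3 of each related list.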

Additional observations from a re-analysis of the deposited data

How the results depend on the processing

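In every alternative run 0 members were called for genotype and their median was below 0. Between 30 and 40 of 48 were lower in the knockout, or 38 of 42 with the filter at the 75th percentile and 41 of 50 without a filter. It was -0.02 in replicates 2 and 3 alone, and between -0.112 (without wild type replicate 2) and -0.0497 (without wild type replicate 1) when single arrays were left out. Limma called 1 gene with the block for the replicate 1 arrays, with the filter at the 75th percentile, with a pseudocount of 100 and with the trended, robust variance, and 5 with that block and variance together. With the replicate block the count was 0 over all genes and 0 over members, and it changed no call after adjustment among the named genes. The members whose groups do not overlap, 3 in the report, were 1 with arrays centred on their medians, 0 with the mean of all probe sets, 14 in replicates 2 and 3 alone, and 4 to 15 without single arrays, where smaller groups separate more easily.

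The count of genes called between the replicate 1 arrays and the others, 3766, was 2205 without the filter, and the members called, 9, were 15 with centred arrays, 17 with the filter at the 75th percentile, 18 with the trended, robust variance and 3 without a filter. The interaction was called in 5 genes with the filter at the 75th percentile, 96 with a pseudocount of 1, 29 with the mean of all probe sets, 0 without a filter, 500 with quantile normalisation and 551 with the trended, robust variance. The last 2 called 2 members each. The causes were not tested.

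Of 34 named genes 14 changed sign in at least 1 alternative. In replicates 2 and 3 alone these were Rpl12 (-0.144), Rpl22l1 (-0.0908), Rpl27a (0.0256), Rplp0 (0.0624), Rplp2 (0.0936), Rps27l (-0.133) and Eif4h (-0.00388). With the mean of all probe sets they were Btf3 (0.0372), Eif2b5 (-0.368), Eif4h (-0.0424) and Rpl22 (0.0471). Without single arrays the ranges were -0.211 to 0.544 for Rpl12, -0.23 to 0.0955 for Rpl22, -0.14 to 0.115 for Rpl22l1, -0.867 to 0.205 for Rpl27a, -1.10 to 0.0402 for Rpl39, -0.155 to 0.0643 for Rplp2, -0.379 to 0.472 for Rps27l, -0.183 to 0.167 for Rps10, -0.31 to 0.174 for Rps9 and -0.124 to 0.35 for Eif4a2. The causes were not tested. Leaving out 1 array unbalances the replicate 1 arrays between genotypes. Dim probe sets, near the filter, limit Rps25, Rps27, Rpl12, Rpl14 and Rpl39.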
